A study of Mus musculus with 10 samples.

Results

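The C/EBP transcription factor genes Cebpa, Cebpb, Cebpd, Cebpe and Cebpg were followed by nuclear RNA-seq through 5 stages of blood formation from HM-1 cells, a mouse embryonic stem (ES) cell line. These 5 genes were taken by their symbols in the count tables, which hold 55487 genes, and 4 of the 5 were also in the authors' matrix of mean expression and passed the filter on low counts. Cebpe did neither. The stages were undifferentiated ES cells, hemangioblasts (HB, FLK1+ cells from embryoid bodies), the first hemogenic endothelium (HE1, KIT+ TIE2+ CD41-), the second (HE2, KIT+ TIE2+ CD41+) and hematopoietic progenitors (HP, KIT+ TIE2- CD41+). ES cells were cultured with leukemia inhibitory factor (LIF), and the embryoid bodies were grown for 3 days. HE1, HE2 and HP cells were sorted from blast cultures whose medium contained VEGF and IL-6. Every library came from the same cell line with no further genotype or drug in the labels, each stage had 2 libraries, which the study calls biologically independent without the labels saying what separates them, and p-values measure the spread between these libraries.

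C/EBP proteins are basic leucine zipper factors, which bind DNA as dimers through a basic region and pair through the zipper next to it. C/EBPα drives the granulocyte and monocyte lineage and halts the cell cycle, C/EBPβ acts in macrophages and in emergency granulopoiesis and is induced by IL-6, C/EBPδ is an early response gene downstream of STAT3, and C/EBPε is needed for the late maturation of granulocytes. C/EBPγ lacks a classical activation domain and serves as a dimer partner for the others and for ATF4. Since all can pair with each other, it was asked how the level of each paralogue and the balance between them changed over the stages.

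In mm10, Cebpa (ENSMUSG00000034957) lies at chr7:35119293-35121928 on the plus strand and Cebpg (ENSMUSG00000056216) at chr7:35046422-35056573 on the minus strand, with 62.72 kb between them. Cebpb (ENSMUSG00000056501) lies at chr2:167688915-167690418 and Cebpd (ENSMUSG00000071637) at chr16:15887286-15891031, both on the plus strand, and Cebpe (ENSMUSG00000052435) at chr14:54710360-54712174 on the minus strand. The exons used for counting span 2636 bases in Cebpa, 1504 in Cebpb, 3746 in Cebpd, 1241 in Cebpe and 5621 in Cebpg. The stretch of 60 coding bases that Cebpa, Cebpb, Cebpe and Cebpg share best is shown because reads of these members would be most alike there. Capitals mark the 35 bases that are the same in these 4 genes.

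Cebpa: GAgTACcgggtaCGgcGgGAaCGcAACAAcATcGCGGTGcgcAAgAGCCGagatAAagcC
Cebpb: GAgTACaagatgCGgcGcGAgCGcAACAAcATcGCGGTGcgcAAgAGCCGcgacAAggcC
Cebpe: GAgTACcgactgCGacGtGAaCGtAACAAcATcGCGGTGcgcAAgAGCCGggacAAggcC
Cebpg: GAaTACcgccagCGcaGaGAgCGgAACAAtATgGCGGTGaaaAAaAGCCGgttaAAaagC

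Over this window 51 of 60 bases of Cebpb and Cebpe matched Cebpa, against 38 in Cebpg, the most distant of these 4. The longest run of identical bases between the annotated transcripts of any 2 members was 29 bases, between Cebpa and Cebpb, and the shortest such maximum was 12.

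Promoters were read from RefSeq (GRCm38.p6) for Cebpa, Cebpb and Cebpg, and those of Cebpd and Cebpe were not analysed here. They are shown because these 3 genes followed different courses over the stages, with 250 bases before the start site and 30 after it, and with motif matches in capitals.

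Cebpa, chr7:35119043-35119322, plus strand: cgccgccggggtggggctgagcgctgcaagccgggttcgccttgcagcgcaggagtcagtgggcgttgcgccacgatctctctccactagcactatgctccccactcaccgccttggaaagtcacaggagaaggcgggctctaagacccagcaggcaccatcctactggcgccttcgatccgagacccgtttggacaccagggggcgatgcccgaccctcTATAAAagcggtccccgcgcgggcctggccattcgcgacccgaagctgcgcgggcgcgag
Cebpb, chr2:167688665-167688944, plus strand: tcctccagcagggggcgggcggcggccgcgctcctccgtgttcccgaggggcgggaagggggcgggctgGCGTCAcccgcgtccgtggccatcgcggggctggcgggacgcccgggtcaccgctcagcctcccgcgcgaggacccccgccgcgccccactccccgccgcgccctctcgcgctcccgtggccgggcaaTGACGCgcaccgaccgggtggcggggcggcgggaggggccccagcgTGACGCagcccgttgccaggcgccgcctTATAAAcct
Cebpg, chr7:35056537-35056816, minus strand: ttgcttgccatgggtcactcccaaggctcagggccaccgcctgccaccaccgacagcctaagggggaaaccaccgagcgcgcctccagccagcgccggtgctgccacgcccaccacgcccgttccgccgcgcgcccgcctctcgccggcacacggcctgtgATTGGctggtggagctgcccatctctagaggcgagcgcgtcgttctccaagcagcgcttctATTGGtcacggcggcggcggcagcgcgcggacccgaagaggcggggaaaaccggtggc

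Cebpa held a TATA box (TATAAA) at position -30, counted from the start site as 0, a motif found in 13.6% of all promoters. Cebpb held TGACGC, part of a cyclic AMP response element variant, at -181 on the reverse strand and at -53 and -7 on its own strand, where 7.44% of promoters held at least 1, and TATAAA at 21 bases past the start. In Cebpg the CCAAT box, present in 37.4% of promoters, occurred on the reverse strand at -89 and -28. All motifs were searched on both strands over the 300 bases of an entry. The RUNX motif TGTGGT was in 16.7% of all promoters and in none of these 3. The same held for the letters AGATAA of GATA factors (11.2% of promoters), for the STAT motif TTCNNNGAA (8.33%) and for a C/EBP motif, TTGCNNAA (10.8%). All 3 entries were rich in G and C, with 67.3% in Cebpa, 80.7% in Cebpb and 71.7% in Cebpg.

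Total counts lay between 24920434 and 58782055 per library, and libraries of the same stage correlated least in HE1 (Pearson's r of log2 CPM 0.967) and most in ES (0.994). Of the sort antigens, Tek (TIE2) was called as higher in HE1 than in HB. Itga2b (CD41) was also called as higher in HE1, at 227 and 127 CPM against 505 and 469 in HE2, although HE1 cells were sorted as CD41-. The 2 HE1 libraries differed in ES cell genes: the summed level of Pou5f1, Nanog, Sox2, Zfp42 and Esrrb was 6.31 CPM in HE1 library 1 and 66.95 in library 2, which is 0.322% and 3.42% of the mean of the ES libraries. In HB, the stage before, it was 98.8 and 74.5 CPM, or 5.04% and 3.80%. For this reason calls and counts that rest on HE1 are also given without each of its libraries where that ends a call or moves a count by over 1.5 times. Levels are in CPM (counts scaled to library size) after TMM normalisation. A change was called where the quasi-likelihood test of edgeR gave an adjusted p-value below 0.05 and the fold change was 2 or more. In bulk libraries fewer expressing cells and less RNA per cell cannot be told apart.

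The calls of the paralogues came at different steps. Cebpd rose from HB to HE1 and Cebpb rose from HE1 to HE2. Cebpa fell from ES to HB, but this call was lost in each fit that left out an ES or HB library. Cebpg passed the criteria at no step and Cebpe stayed near the floor of detection. A difference in course between Cebpb and Cebpd was not shown, since their ratio over the stages did not pass the test given below.

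**Figure D1:**
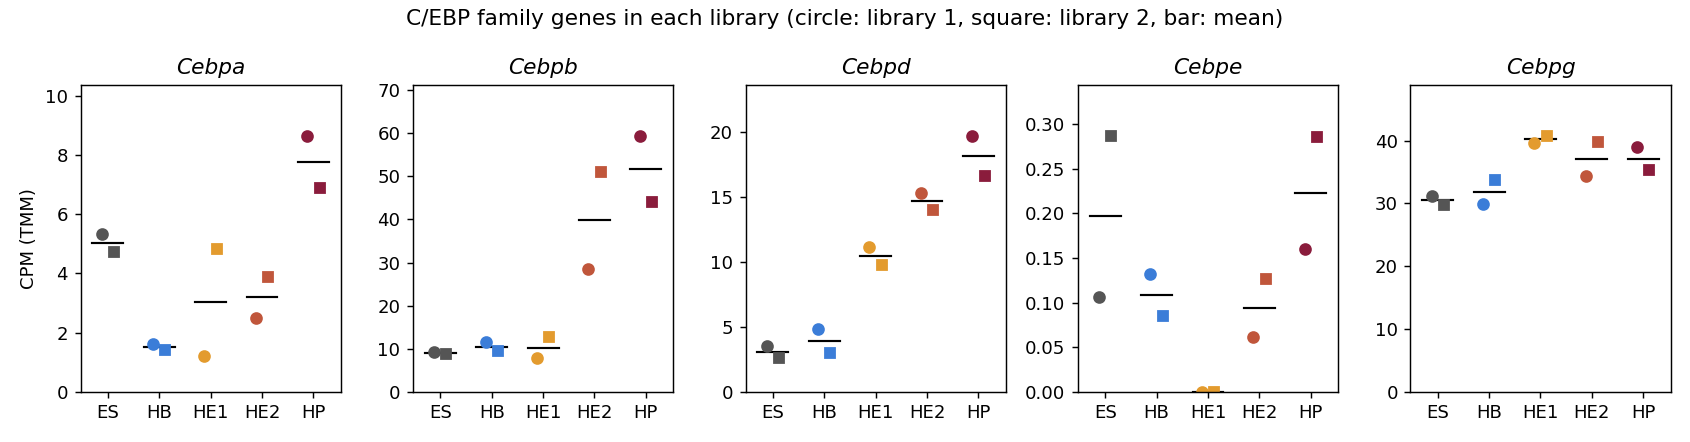
Level of each C/EBP gene in CPM (TMM) in the 10 libraries by stage, with a separate linear axis for each gene, circles for library 1, squares for library 2 and bars for the mean. Cebpd stands higher in both HE1 libraries than in HB, Cebpb stands higher in HE2 and HP than before, and the 2 HE1 libraries of Cebpa are far apart at 1.22 and 4.82 CPM.

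Cebpa was measured at 5.32 and 4.73 CPM in ES cells and at 1.62 and 1.41 in HB. The HE1 libraries held 1.22 and 4.82 CPM, those of HE2 2.50 and 3.87 and those of HP 8.65 and 6.90. Both HB libraries lay below both ES libraries, both HP libraries lay above all others, and the HE1 libraries spanned the range from below HB to within ES. From ES to HB Cebpa fell by 1.73 ± 0.53 on the log2 scale (SE, n = 2 libraries per stage, adjusted p = 0.0234, edgeR), which is 3.32-fold, but in the 4 fits that each left out an ES or HB library it was not called, with adjusted p-values between 0.0588 and 0.127 and log2 fold changes between -1.81 and -1.63. The HB to HE1 change was 1.01 ± 0.53 (adjusted p = 0.169) and rested on HE1 library 2, with -0.30 (adjusted p = 0.636) in its absence and 1.63 (adjusted p = 0.00882) without library 1. Behind the HE1 values were 29 counts in library 1 and 146 in library 2. Their gap of 1.93 on the log2 scale was exceeded by 6.34% of all tested genes, whose median gap in HE1 was 0.41. The ES cell genes were also higher in HE1 library 2, as given above. Both HB libraries had more of these transcripts than HE1 library 2, with Cebpa at 1.62 and 1.41 CPM. Any link between these genes and Cebpa was not tested. HP was 5.13-fold above HB (log2 fold change 2.36 ± 0.54, adjusted p = 0.00688), and this comparison involves no HE1 library.

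Cebpb stood at 9.21 and 8.75 CPM in ES cells and at 11.5 and 9.44 in HB. It was at 7.74 and 12.7 CPM in the HE1 libraries, then at 28.6 and 51.0 with HE2 and at 59.4 and 44.1 with HP. The 6 libraries before HE2 lay in 1 range and the 4 later ones lay above them without overlap. The rise from HE1 to HE2 was 3.87-fold, with a log2 fold change of 1.95 ± 0.31 (adjusted p = 0.00573). With any 1 of the 10 libraries left out it ran from 1.49 to 2.36, and it stayed called in every such fit. No further change was called from HE2 to HP (0.38 ± 0.30, adjusted p = 0.951). Between ES and HB (0.22 ± 0.30, adjusted p = 0.612) and between HB and HE1 (-0.026 ± 0.31, adjusted p = 0.961) Cebpb did not pass the test either.

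For Cebpd the ES libraries held 3.53 and 2.55 CPM and the HB libraries 4.83 and 2.96. Later levels were 11.1 and 9.71 CPM for HE1, 15.3 and 14.0 for HE2 and 19.7 and 16.6 for HP. The HE1, HE2 and HP libraries were each above every library of the stage before, whereas ES and HB overlapped. Cebpd rose 2.68-fold from HB to HE1, with a log2 fold change of 1.42 ± 0.28 (adjusted p = 0.00389), and the range with 1 library left out was 1.07 to 1.75 with each fit called. The later steps were smaller and not called, at 0.49 ± 0.27 from HE1 to HE2 (adjusted p = 0.211) and 0.31 ± 0.27 from HE2 to HP (adjusted p = 0.972). From ES to HP the sum of these steps was 5.93-fold (2.57 ± 0.29, adjusted p = 3.89e-05).

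Cebpe had between 0 and 10 counts per library and 45 in all. It was at 0 counts in both HE1 libraries, where the floor of 3 counts is 0.126 and 0.0991 CPM, and its 2 highest values were 0.287 CPM in ES library 2 and 0.286 in HP library 2. ES and HP overlapped, and the stages could not be ordered at this depth. The gene did not pass the filter on low counts. Where it was fitted without that filter, HP was called as higher than HE1 (adjusted p = 0.0288, edgeR) on 16 counts in HP against 0 in HE1.

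Cebpg was at 31.2 and 29.8 CPM in ES cells and at 29.9 and 33.7 in HB. HE1 libraries held 39.7 and 40.7 CPM, HE2 libraries 34.4 and 39.7 and HP libraries 38.9 and 35.4. All 10 values lay in a narrow band, with ES and HB at its lower end. The largest difference between any 2 stages was that of HE1 over ES, 1.32-fold (0.40 ± 0.15, adjusted p = 0.0405), which passes the p-value threshold but not the 2-fold one. From HB to HE1 the change was 0.34 ± 0.15 (adjusted p = 0.106).

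Of the 4 tested members, 1 was called between ES and HB (Cebpa, lower), where 28.8% of all tested genes were called, 11.5% higher and 17.3% lower. Between HB and HE1 it was 1 (Cebpd, higher) with 20.9% of all genes called, 12.7% higher and 8.19% lower, and between HE1 and HE2 it was 1 (Cebpb, higher) with 8.65% called, 3.26% higher and 5.39% lower. From HE2 to HP edgeR called 0 members and 0.0% of all genes. At an unadjusted p-value under 0.05 edgeR had 1783 genes, of which Cebpa was 1, while limma-voom called 35 genes higher and 27 lower and DESeq2 108 and 193, none of them a C/EBP gene. Over the whole step from HE1 to HP 1 member was called, Cebpb with 2.33 ± 0.31 (adjusted p = 0.000814), against a background of 16.5% called, 5.35% higher and 11.2% lower. Cebpa missed the threshold here with 1.35 ± 0.51 (adjusted p = 0.0787), and its value was 2.67 (adjusted p = 0.00389) without HE1 library 2 and 0.72 (adjusted p = 0.152) without library 1. Cebpd changed by 0.80 ± 0.27 (adjusted p = 0.0526).

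Stages further apart were compared in the same fit. Between ES and HE1 1 member was called, Cebpd, which was higher by 1.77 ± 0.28 on the log2 scale (adjusted p = 0.000458), where 40.7% of all tested genes were called, 20.3% higher and 20.4% lower. Cebpb and Cebpd were both called as higher than in ES at HE2, 4.43-fold and 4.78-fold (38.2% of genes called, 16.3% higher and 21.9% lower), and at HP, 5.76-fold and 5.93-fold (38.7% called, 16.7% higher and 21.9% lower). Relative to HB the same pair was higher in HE2, 3.80-fold and 3.77-fold, with 20.7% of genes called, 9.76% higher and 11.0% lower. In HP 3 members were higher than in HB, namely Cebpa 5.13-fold, Cebpb 4.95-fold and Cebpd 4.67-fold, where 21.8% of genes were called, 10.1% higher and 11.6% lower. Comparisons that start from the same stage share its libraries.

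**Figure D2:**
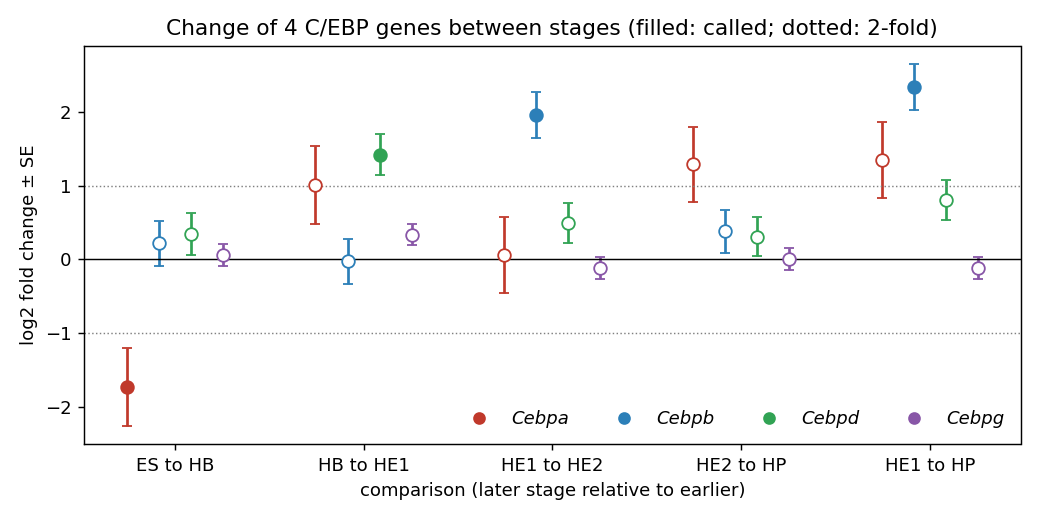
Log2 fold change of the 4 tested C/EBP genes in 5 comparisons of stages, with the later stage relative to the earlier one and bars for the standard error. Filled points passed an adjusted p-value of 0.05 and 2-fold (dotted lines), which held for Cebpa from ES to HB, Cebpd from HB to HE1 and Cebpb from HE1 to HE2 and from HE1 to HP.

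When the stages were ordered by the mean level of each gene, few neighbours passed the test. The order was HB, HE1, HE2, ES, HP for Cebpa, ES, HE1, HB, HE2, HP for Cebpb, ES, HB, HE1, HE2, HP for Cebpd and ES, HB, HE2, HP, HE1 for Cebpg. Of 16 neighbouring pairs 2 had an adjusted p-value under 0.05, namely HB and HE2 for Cebpb (1.93 ± 0.31, adjusted p = 0.000993) and HB and HE1 for Cebpd. Without HE1 library 1 there were 3. Among the pairs that missed the threshold, the libraries overlapped for some, such as HE2 and HP for Cebpb, and did not for others, such as HE1 and HE2 for Cebpd.

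To compare the paralogues with each other, levels were divided by exon length. In ES cells Cebpb was at 5.97 ± 0.21 CPM per kb (SD, n = 2) and Cebpg at 5.42 ± 0.17, ahead of Cebpa at 1.91 ± 0.16 and Cebpd at 0.81 ± 0.18. In HE1 the largest mean was that of Cebpg at 7.15 ± 0.13, beside 6.80 ± 2.34 for Cebpb, 2.78 ± 0.26 for Cebpd and 1.15 ± 0.97 for Cebpa. The order of the first 2 turned between the HE1 libraries, with Cebpg at 7.06 and Cebpb at 5.15 CPM per kb in library 1 and 7.25 and 8.45 in library 2. In HP Cebpb led with 34.4 ± 7.2, followed by Cebpg at 6.61 ± 0.45, Cebpd at 4.84 ± 0.58 and Cebpa at 2.95 ± 0.47. In HP the mean of Cebpb was thus far above that of Cebpg, whereas in ES the 2 were close.

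The summed level of the family was 14.7 and 13.8 CPM per kb in the ES libraries, 14.3 ± 0.91 in HB and 17.9 ± 3.2 in HE1, and then 38.2 ± 11.4 in HE2 and 48.96 ± 8.6 in HP. No HE2 or HP library overlapped with the earlier ones. Cebpb made up 41.8% ± 0.33 of this sum in ES, 37.5% ± 6.4 in HE1, 68.1% ± 7.3 in HE2 and 70.0% ± 2.4 in HP. Cebpg went from 38.0% ± 0.47 in ES and 40.6% ± 6.5 in HE1 to 17.8% ± 3.5 in HE2 and 13.6% ± 1.5 in HP, although its own level did not change by 2-fold. The mean share of Cebpd was highest in HE1, at 19.0% and 12.9% of the sum in the 2 libraries, where the second overlapped with HE2, and that of Cebpa was highest in ES at 13.4% ± 0.52.

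**Figure D3:**
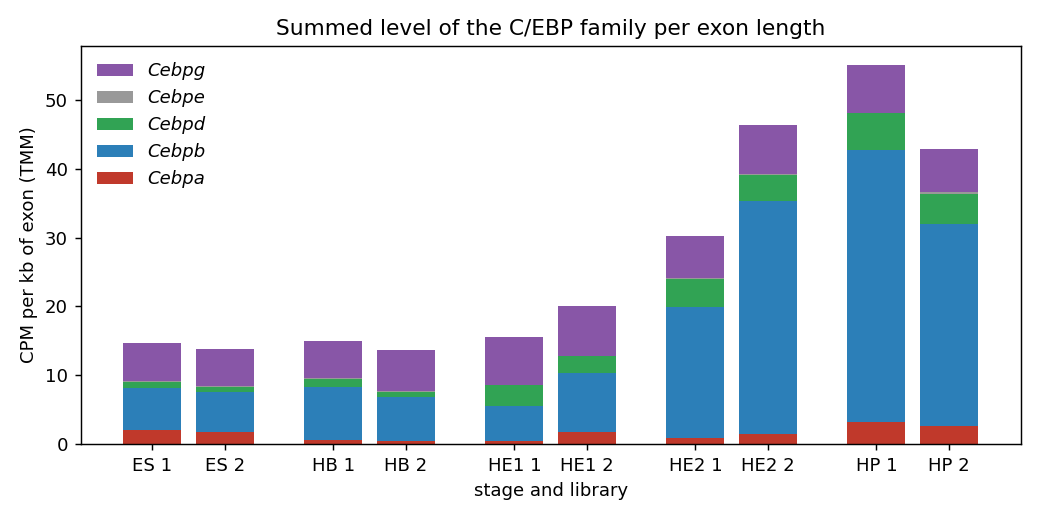
Summed level of the 5 C/EBP genes in CPM per kb of exon in each of the 10 libraries, stacked by gene. Bars start at 0, and the 4 HE2 and HP libraries reach between 30.2 and 55.1, most of it from Cebpb, against 13.7 to 20.1 in the 6 earlier libraries.

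Whether pairs of paralogues kept the same ratio over the stages was tested on the log2 ratio within each library, which does not depend on library size, with an exact permutation test over the 10 libraries (945 arrangements, smallest possible p = 0.00106) and Benjamini-Hochberg adjustment over the 10 pairs. The test asks for any difference between stages and has no direction. For 4 of the 10 pairs the adjusted p-value was under 0.05. The ratio of Cebpa to Cebpb went from -1.64 ± 0.067 in ES to -3.55 ± 0.061 in HB and -4.40 ± 0.15 in HE2, and it was -3.53 ± 0.075 in HP, close to the HB value (SD, n = 2, adjusted p = 0.0212, exact permutation test). In HE1 it was -3.42 in library 1 and -2.20 in library 2, which shows the split between these libraries again. For Cebpd over Cebpg it went from -2.73 ± 0.28 in ES and -2.47 ± 0.61 in HB to -1.36 ± 0.16 in HE1, -0.75 ± 0.24 in HE2 and -0.45 ± 0.075 in HP (adjusted p = 0.0212, exact permutation test). The remaining pairs that passed were Cebpd with Cebpe and Cebpb with Cebpe (adjusted p = 0.0212 and 0.0423, exact permutation test), which rest on the few counts of Cebpe. In both HE1 libraries Cebpe had 0 counts, so that the small count added before taking logs set its level there. The ratio of Cebpb to Cebpg missed the threshold (adjusted p = 0.0529, exact permutation test), with 0.14 ± 0.0061 in ES, -0.11 ± 0.48 in HE1 and 2.37 ± 0.21 in HP. With 1 library left out, between 0 and 7 pairs passed, the highest number without HE1 library 2 and 0 without ES library 2, HB library 1 or HE2 library 1.

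**Figure D4:**
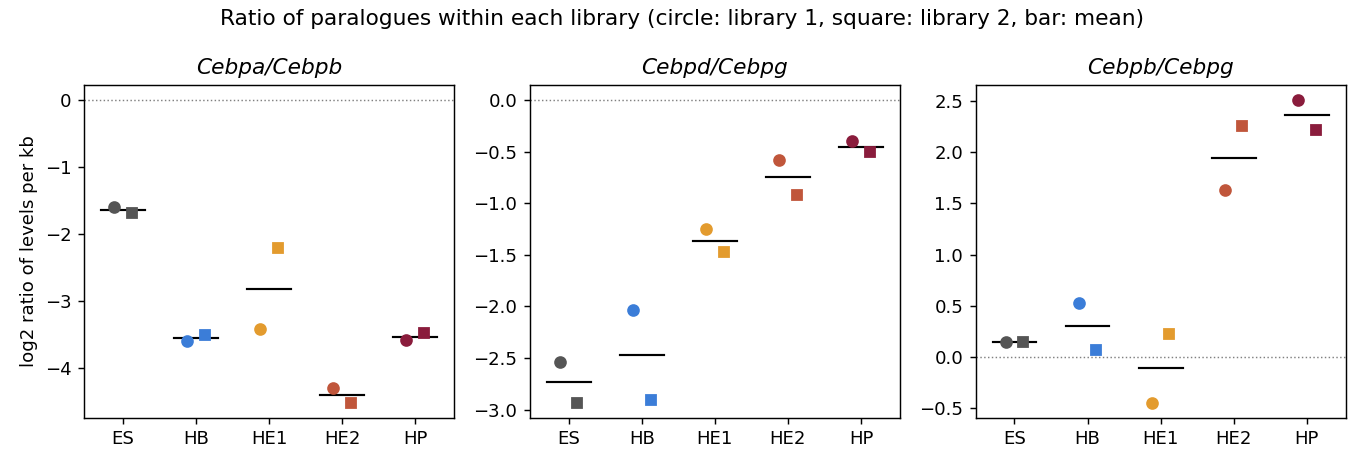
Log2 ratio of levels per kb for 3 pairs of C/EBP genes within each of the 10 libraries by stage, with circles for library 1, squares for library 2 and bars for the mean. The ratio of Cebpd to Cebpg is higher in each later stage from a mean of -2.73 in ES to -0.45 in HP, and the ratio of Cebpa to Cebpb is highest in ES and lowest in HE2.

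The genes whose log2 CPM followed each member most closely over the 10 libraries were then listed, among 22565 tested genes with a symbol and with Pearson's r as a description. For Cebpd they were Gp5, a platelet glycoprotein (r = 0.992), Sirt7, a nucleolar deacylase (0.987), and Fbxo9, a ubiquitin ligase component (0.986). Gp5 went from 0.28 CPM in ES to 3.10 in HE1 and 10.4 in HP. For Cebpb they were D030028A08Rik (0.985) and the natural killer cell receptor genes Klrb1c (0.984) and Klrb1a (0.982), both of which were at 0 in ES, HB and HE1 and reached means of 2.95 and 0.63 CPM in HP. For Cebpa they were E2f8, a repressor in the cell cycle (0.940), Lpcat2 (0.938) and Irf5, an interferon regulatory factor (0.931), and for Cebpg Dvl3, a component of WNT signalling (0.956), Fam53a (0.948) and Tll2 (0.943). These libraries share the order of the stages, so that many genes correlate.

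Genes that overlap a member or lie within 20 kb of it were examined next. Spidr overlaps the end of Cebpd on the opposite strand and fell by 1.12 ± 0.15 on the log2 scale from HB to HE1 (adjusted p = 0.000494), the step at which Cebpd rose. Its means were 56.4 ± 0.29 CPM in HB and 26.0 ± 0.52 in HE1. Tmem189 overlaps Cebpb on the opposite strand and stood at 33.1 ± 3.0 CPM in HE1 and 33.3 ± 0.83 in HE2, where Cebpb rose. Counting used the strand, and a pair on the exons of several genes was counted on each. Within Cebpg the small genes Gm44836 and Gm45094 lie on the same strand with up to 52 and 55 counts per library, and Gm45095 lies opposite with up to 9. Gm45091, opposite the start of Cebpa, had up to 8 counts. Of the genes nearby without overlap, Slc7a8, an amino acid transporter gene 10035 bases from Cebpe, went from 3.90 ± 0.85 CPM in HE1 to 23.7 ± 5.0 in HE2, while Cebpe itself stayed at the floor. Pepd, 1714 bases from Cebpg, was at 40.3 ± 0.61 CPM in HE1 and 38.7 ± 1.95 in HE2. A530013C23Rik, 759 bases from Cebpb, had up to 34 counts, in HE1 library 2. The predicted gene Gm29776 near Cebpe had at most 36 counts, 1700123O20Rik on the same side of Cebpe was at 22.7 ± 3.6 CPM in HE1, and Gm20082 near Cebpd had at most 4. Gm22535 and Gm35665 near Cebpa and Gm45096 near Cebpg had no counts in any library.

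C/EBP proteins act with and against other factors, and 7 groups of such genes were counted in the same fit. For all these counts, the shares of all tested genes called as higher and lower were 12.7% and 8.19% from HB to HE1. They were 3.26% and 5.39% from HE1 to HE2, and 5.35% and 11.2% from HE1 to HP. Among relatives of the family, 12 other bZIP and CCAAT-binding genes were listed and 11 were tested. Ddit3, whose product CHOP is a C/EBP protein that blocks its partners, was at 5.34 ± 0.53 CPM in ES, 7.06 ± 2.02 in HE1 and 7.15 ± 0.0086 in HP and was called at no step. From HB to HE1 Batf3 rose (1.76 ± 0.58, adjusted p = 0.0404), a call that was lost without either HE1 library, and Dbp, a circadian PAR bZIP gene, fell by 1.56 ± 0.29 (adjusted p = 0.00257). The median of the tested members was -0.0060, against 0.035 for all tested genes. From HE1 to HE2 1 member fell, the repressor gene Nfil3, by 1.51 ± 0.34 (adjusted p = 0.0231), which was not called without HE1 library 2, and the median was -0.22 against -0.075.

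IL-6 was in the blast medium and LIF in the ES cell medium, and 14 genes of the IL-6 family receptors and the STAT pathway were examined. The medium changed with the stage up to HE1, so that effects of medium and stage cannot be told apart there. From HB to HE1, where Cebpd rose, 1 of the 14 rose and 0 fell, while 12.7% of all tested genes were called as higher and 8.19% as lower. The median log2 fold change was 0.56 against 0.035 for all tested genes. The gene that rose was Osmr, the oncostatin M receptor gene (3.18 ± 0.65, adjusted p = 0.00461), at 1.47 and 2.21 CPM in HE1. Stat3 was at 118 and 129 CPM in HB and at 290 and 188 in HE1 (0.95 ± 0.19, adjusted p = 0.00472), which is under 2-fold. The count of rising genes was 5 without HE1 library 2 and 1 without library 1, fits chosen after seeing the data. From HE1 to HE2, where Cebpb rose, Il6ra, the IL-6 receptor gene, rose from 1.43 and 1.98 CPM to 8.50 and 11.6 (2.55 ± 0.30, adjusted p = 0.00111), and Stat5a rose by 1.26 ± 0.25 (adjusted p = 0.0160). Lifr, the receptor gene for leukemia inhibitory factor, fell by 1.26 ± 0.27 (adjusted p = 0.0200). The signal transducer gene Il6st, which these receptors share, was at 196 and 137 CPM in HE1 and 150 and 143 in HE2 and was not called. The count of 2 rising genes was 1 without HE1 library 2 and 3 without library 1. From HE1 to HP 2 rose and 3 fell, among them Socs3, the inhibitor of IL-6 signalling, by 1.31 ± 0.29 (adjusted p = 0.00837), and 4 rose without HE1 library 1.

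Of 12 blood transcription factor genes that work with C/EBP proteins, 9 rose from ES to HB, 3 from HB to HE1 and 5 from HE1 to HE2, and at these steps 0 fell. Of all tested genes 11.5%, 12.7% and 3.26% were called as higher at these steps, and 17.3%, 8.19% and 5.39% as lower. At the HE1 to HE2 step the median was 0.60 against -0.075 for all tested genes. Spi1, whose product PU.1 acts with C/EBPα in myeloid cells, went from 1.85 and 2.48 CPM in HE1 to 26.4 and 65.9 in HE2 (4.40 ± 0.47, adjusted p = 0.000692). Myb rose by 3.57 ± 0.45 (adjusted p = 0.00185) and Gata1, the erythroid factor gene, by 3.00 ± 0.36 (adjusted p = 0.00138). Runx1, the master regulator of this transition, went from 52.4 and 58.6 CPM to 295 and 519, and Tal1 was the fifth gene. The 3 genes that rose from HB to HE1, together with Cebpd, were Erg (2.35 ± 0.24, adjusted p = 7.90e-05), Gfi1 (1.66 ± 0.34, adjusted p = 0.00448) and Fli1 (1.45 ± 0.22, adjusted p = 0.000966). In HP, relative to HE1, 6 were higher and 0 lower, where 5.35% of all tested genes were called as higher and 11.2% as lower. The 5 genes that rose from HE1 to HE2 were 6 without HE1 library 1 and 4 without library 2. Leaving out HE1 library 1 gave 2 genes lower from HB to HE1, and leaving out library 2 gave 1 gene lower from HE1 to HP.

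Of 8 genes for antagonists and modifiers, Trib2, which targets C/EBPα for degradation, fell by 2.46 ± 0.36 from HB to HE1 (adjusted p = 0.000674) and rose by 1.58 ± 0.35 from HE1 to HE2 (adjusted p = 0.0212). Its levels were 9.09 and 7.43 CPM in HE1 and 15.8 and 33.7 in HE2. Trib3 also fell from HB to HE1 (by 1.42 ± 0.47, adjusted p = 0.0411), and Id1, an inhibitor of helix-loop-helix factors, fell from HE1 to HE2 (by 1.08 ± 0.20, adjusted p = 0.0124). The median was 0.22 at the first of these steps and -0.16 at the second, beside 0.035 and -0.075 for all tested genes. Zfpm1, the gene of FOG1, which opposes C/EBP proteins in erythroid cells, was at 337 and 281 CPM in HE1 and 326 and 380 in HE2 and was called at neither of these 2 steps. Trib2 was not called from HE1 to HE2 without HE1 library 2, where 0 of the 8 rose, and Id1 was not called without library 1, where 2 rose and 0 fell. Leaving out library 2 gave 1 gene higher and 1 lower from HB to HE1. From HE1 to HP 2 genes rose and 2 fell, where 5.35% of all tested genes were called as higher and 11.2% as lower. Trib1, the relative of Trib2, fell by 2.27 ± 0.51 (adjusted p = 0.0101) and Id1 fell by 1.85 ± 0.21 (adjusted p = 0.000326). Without HE1 library 2 these counts were 3 falling and 0 rising.

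Genes known as C/EBP targets in granulocytes and monocytes numbered 20, of which 13 were tested. The filter on low counts lets in a gene that is high in any stage. Genes low in HE1 could thus enter through HE2 or HP and raise the medians, which are a description. From HE1 to HE2 8 rose and 1 fell, with a median log2 fold change of 3.37 against -0.075, and from HE1 to HP 10 rose and 1 fell, with a median of 4.32 against -0.024. Of all tested genes 3.26% were called as higher and 5.39% as lower from HE1 to HE2, and 5.35% and 11.2% from HE1 to HP. Mpo, the myeloperoxidase gene of primary granules, went from 6.90 and 1.42 CPM in HE1 to 61.5 and 148 in HE2 (4.69 ± 0.67, adjusted p = 0.00339). Csf3r, the G-CSF receptor gene, went from 0.80 and 0.56 CPM to 14.8 and 18.1 (4.60 ± 0.42, adjusted p = 0.000498), and Fcgr3, an Fc receptor gene, from 0.25 and 0.13 to 3.78 and 5.46 (4.60 ± 0.47, adjusted p = 0.000655). All HE2 libraries lay above all HE1 libraries for these 3. The gene that fell was Mmp9, by 2.47 ± 0.59 (adjusted p = 0.0273), which was at 4.25 and 13.6 CPM in HE1 and was not called without library 2, where from HE1 to HP 0 genes fell too. From HB to HE1 4 genes rose and 1 was lower, again Mmp9, which fell by 2.23 ± 0.55 (adjusted p = 0.0119). At this step 12.7% of all tested genes were called as higher and 8.19% as lower. Without HE1 library 1 the number of rising genes was 6. The largest rises were those of Itgam (5.26 ± 0.66), Lyz2 (4.97 ± 0.63) and Csf1r (4.65 ± 0.85), with 0.00259 as the highest adjusted p-value of these 3. In HE1 they were still low, at 0.88 and 0.56 CPM for Itgam and 1.05 and 1.98 for Lyz2. The genes of late granulocyte maturation Camp, Ngp, S100a8 and S100a9, some of which depend on C/EBPε, were at 0 counts in every library.

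**Figure D5:**
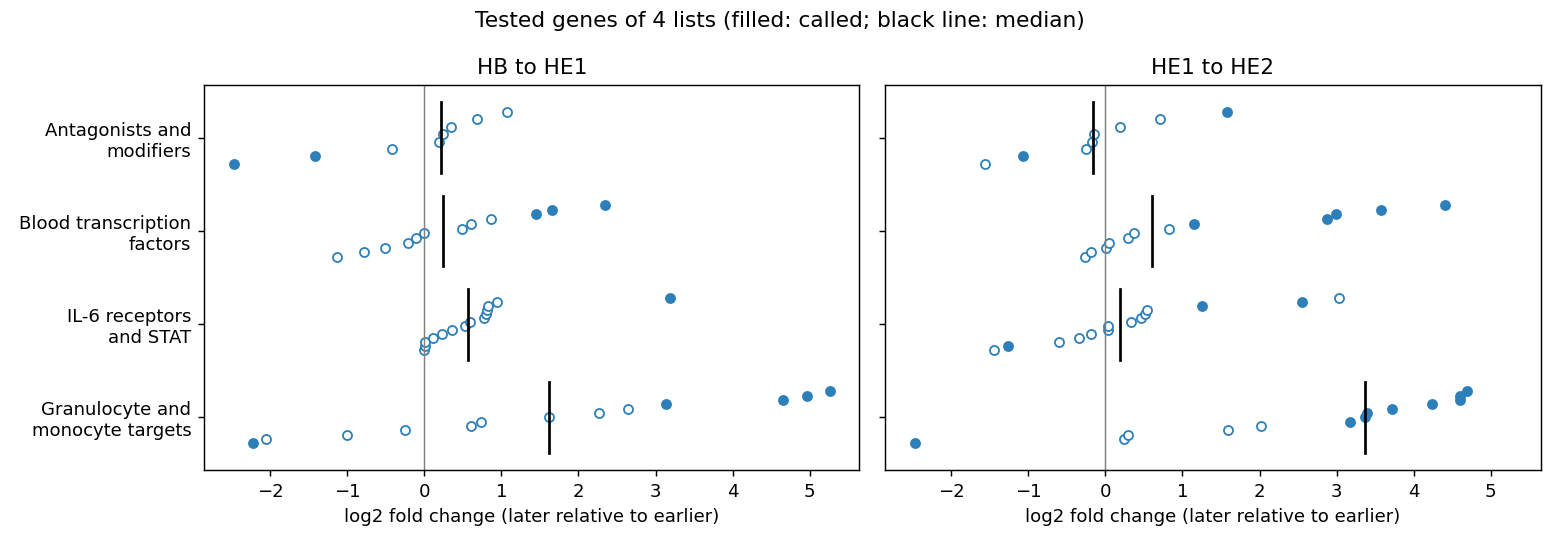
Log2 fold change of each tested gene in 4 lists related to C/EBP proteins, from HB to HE1 and from HE1 to HE2, with filled points for called genes and a black line for the median of the list. The granulocyte and monocyte targets have medians of 1.61 and 3.37 at the 2 steps, and 8 of their 13 tested genes were called as higher from HE1 to HE2. Only genes that passed the filter on low counts are shown, and a gene could pass it through a later stage where it is high.

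Markers of other blood and stromal cells moved with these steps as well, also from HB to HE1, where Cebpd rose. The summed level of the 5 erythroid markers was 6.71 and 7.47 CPM in HB and 531 and 258 in HE1, then 2163 and 1659 for HE2 and 4651 and 2367 for HP, and all 5 rose at both the HB to HE1 and the HE1 to HE2 step. The 8 macrophage markers together were at 14.8 and 13.0 CPM in HB and 50.4 and 25.5 in HE1, then at 28.7 and 22.3 for HE2 and 19.98 and 32.9 for HP, with C1qa at 0 counts in every library and 1 of the 5 tested markers, Cx3cr1, called as higher from HE1 to HE2. The median log2 fold change of these 5 was 1.43 at that step, against -0.075 for all tested genes. From HE1 to HP it was 2.90 against -0.024, with 3 called as higher and 1 as lower. Of all tested genes 5.35% were called as higher there and 11.2% as lower. The 5 mast cell and basophil markers were at 65.8 and 81.7 CPM in HB, 93.8 and 53.5 in HE1 and 65.5 and 62.2 in HE2, most of it from Gata2, which is also in the list of transcription factors, with Mcpt8 at 0 counts in both HE1 libraries. The 6 endothelial markers summed to 192 and 159 CPM in HB, 2447 and 1508 in HE1 and 1504 and 806 in HE2, and 5 of them rose from HB to HE1. The 4 smooth muscle markers summed to 17.2 and 13.2 CPM in HB, 622 and 939 in HE1 and 651 and 406 in HE2, and 3 of them rose from HB to HE1. Their part in the changes of the C/EBP genes was not tested.

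Targets of C/EBP proteins in fat and liver were mostly too low to be tested. Of 12 listed genes 4 were tested, and from HE1 to HE2 0 of these were called in edgeR, with a median of -0.60 against -0.075, while 1 was higher without HE1 library 1. The lipoprotein lipase gene Lpl fell by 1.15 ± 0.21 from HB to HE1 (adjusted p = 0.00228) and rose by 2.05 ± 0.21 from HE1 to HP (adjusted p = 0.000204). From ES to HB 2 of the 4 genes fell and 1 rose, with a median of -0.39 against 0.0 for all tested genes, of which 17.3% were called as lower and 11.5% as higher. A gene could pass the filter through ES alone, so that the median of these 4 is only a description. Lpl fell by 1.29 ± 0.20 at this step (adjusted p = 0.000554), and Cps1, of the urea cycle, went from 0.98 and 1.12 CPM in ES to 0 counts in both HB libraries (adjusted p = 0.00311). The gene that rose was Pparg, the nuclear receptor gene that C/EBP proteins induce in adipocytes (6.54 ± 0.64, adjusted p = 2.91e-05), which fell by 2.71 ± 0.49 from HB to HE1 (adjusted p = 0.00232). From HB to HE1 the number of falling genes in this list was 2, and 1 without HE1 library 2, and 1 gene rose without library 1. From HE1 to HP 1 gene fell without library 1. Lep had 0 counts in every library, and the 3 adipocyte markers together reached at most 0.248 CPM, in ES library 1.

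ATF4 and CHOP target genes, which C/EBPγ can regulate as a partner of ATF4, made up the last group of 10. From HB to HE1 1 rose and 2 fell, from HE1 to HE2 1 rose and 0 fell, and from HE1 to HP 4 rose and 0 fell. Of all tested genes 12.7%, 3.26% and 5.35% were called as higher in these comparisons, and 8.19%, 5.39% and 11.2% as lower. Slc7a11, the cystine transporter gene, went from 0.40 and 0.42 CPM in HB to 11.3 and 10.9 in HE1 (4.75 ± 0.29, adjusted p = 5.51e-06), and Shmt2, of serine metabolism, fell by 1.74 ± 0.19 (adjusted p = 0.000133). Psat1, of the same pathway, rose by 1.04 ± 0.22 from HE1 to HE2 (adjusted p = 0.0180). The medians at these 3 comparisons were -0.34, 0.091 and 0.14, beside 0.035, -0.075 and -0.024 for all tested genes. The number that fell from HB to HE1 was 3 without HE1 library 1 and 1 without library 2. Without HE1 library 2 the counts of rising genes were 0 from HE1 to HE2 and 1 from HE1 to HP, and without library 1 there were 3 rising genes and 1 falling gene from HE1 to HE2 and 1 falling gene from HE1 to HP.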

How the data were processed

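Nuclear RNA-seq libraries of HM-1 cells at 5 stages, 2 per stage, were analysed, and groups and library numbers came from the labels. Per the submitters' processing notes and the methods, the authors removed residual rRNA reads with RiboDetector, trimmed with Trimmomatic, aligned the rest with Hisat2 (v2.2.1) against mm10, and counted with featureCounts (v2.0.1) with Ensembl gene models (release 102). The deposited files hold raw counts of read pairs per gene, on exons, reverse-stranded, each pair counted on every gene it overlaps. The authors also deposited a matrix of expression scores per stage, which they made with edgeR (v3.40.2) and limma-voom (v3.17) in R (v4.2.3) and which was used here only as an alternative. Read pairs carry no molecular identifiers, so that floors cover counting error only.

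Here R (v4.3.3) and its package edgeR (v4.0.16) were used for the fit: filterByExpr (22596 genes kept), TMM and a quasi-likelihood model of stage over the 10 libraries, which left 5 residual degrees of freedom. A call required a Benjamini-Hochberg adjusted p-value below 0.05 over all tested genes and a change of 2-fold or more. Log2 CPM used a prior count of 2, and the common biological coefficient of variation was 0.226. The alternatives were limma-voom (limma v3.58.1), DESeq2 (v1.42.0), total counts, no filter, only the 4 libraries compared, a term for the replicate number, a 4-fold threshold, a prior count of 0.5, the authors' matrix and leaving out each library in turn. The model was tested on simulated data. Ratios of paralogues, permutation tests and figures used Python (v3.11.15) with pandas (v2.3.3), scipy (v1.17.1), matplotlib (v3.10.9) and numpy (v2.4.6). Coding sequences came from GENCODE mouse release 21 (that of Cebpd is not reported here) and promoters from RefSeq (GRCm38.p6). Deviations of same-numbered libraries of 2 stages correlated between -0.316 and 0.213. With 2 libraries per stage these values cannot settle whether the numbers pair libraries, and the main fit did not pair them.

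The C/EBP genes and the lists were chosen with earlier results of these data known. The named genes were the 5 members, the 3 most correlated genes of each, genes overlapping a member or within 20 kb, up to 3 called genes per list with the largest change in a comparison described, and genes at 0 in every library. Other genes named with their values were chosen after their values were seen. Ddit3 has 2 Ensembl genes, of which the longer was used.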

Additional observations from a re-analysis of the deposited data

How the results depend on the processing

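The calls of Cebpb from HE1 to HE2 and HE1 to HP and of Cebpd from HB to HE1 held with limma-voom, DESeq2, total counts, no filter, only the 4 libraries compared and each library left out. With at least 4-fold the number of called members was 0 from ES to HB, HB to HE1 and HE1 to HE2. From HE1 to HP it was 2 with limma-voom and DESeq2, which added Cebpa, and 3 without the filter, which added Cebpa and Cebpe. With 1 library left out the counts ran from 0 to 1 for ES to HB, from 1 to 2 for HB to HE1, from 1 to 2 for HE1 to HP and from 0 to 7 for paralogue pairs, and the second member from HE1 to HP was Cebpa without HE1 library 2 and Cebpe, which then passed the filter, without either HB or either HE2 library.

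No value that changed sign was called, but Cebpa from HB to HE1 was called without HE1 library 1. With total counts the log2 fold change of Cebpb from HB to HE1 was 0.039 and that of Cebpa from HE1 to HE2 was -0.10. With only the 4 libraries compared Cebpb from HB to HE1 was 0.0031 and Cebpg from HE2 to HP was -0.0093, and the latter was -0.0016 without the filter. With 1 library left out the ranges were -0.30 to 1.63 (Cebpa) and -0.43 to 0.24 (Cebpb) from HB to HE1, -0.57 to 1.38 (Cebpa) and -0.21 to 0.0047 (Cebpg) from HE1 to HE2, -0.021 to 0.66 (Cebpd) and -0.023 to 0.17 (Cebpg) from ES to HB, and -0.10 to 0.11 (Cebpg) from HE2 to HP. The cause was not tested.

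The replicate block changed no call of a member. The blocked log2 fold change was -1.74 for Cebpa from ES to HB, 1.45 for Cebpd from HB to HE1 and 1.95 for Cebpb from HE1 to HE2. The labels do not say whether libraries with the same number share a culture. With 2 libraries per stage, a lone library left in a stage is assumed to vary like the others. The counts of Cebpe, at most 10 per library, are too few to order the stages.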
